A study of Homo sapiens with 12 samples.

Results

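The IgG-only circular RNAs (circRNAs) of this RNA immunoprecipitation experiment were those counted with normal rabbit IgG but never with the IGF2BP2 antibody. Membership was chosen from the deposited counts: 0 counts in all 6 libraries of the IGF2BP2 antibody and at least 1 count in any of the 6 IgG libraries. This rule was met by 568 of the 6384 circRNAs in the file (8.90%), and by 36.3% of the 1565 circRNAs that any IgG library held. Of the remaining circRNAs, 997 had counts with both antibodies and 4819 with the IGF2BP2 antibody only. The rule used the contrast of the antibodies, so the zeros in the IGF2BP2 libraries are a description and are not tested.

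The cells were MDA-MB-231, an established triple-negative breast cancer line. The parental cells (Sens) are labelled WT and untreated, and the derivative with established resistance to BET inhibitors (Res) was kept under the inhibitor until harvest, so acquired resistance and drug exposure cannot be told apart. Each line was precipitated with an anti-IGF2BP2 monoclonal antibody (RIP) or with normal rabbit IgG, with 3 libraries in each of the 4 groups. Nothing in the labels places the replicates in separate cultures or says how many clones the Res cells came from, so the spread between libraries may be technical.

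Circular RNAs are closed molecules made when a splice donor joins an upstream acceptor, and they lack the free ends that exonucleases attack. IGF2BP2 is an RNA-binding protein known for acting on the stability and translation of its target transcripts. Immunoglobulin without a specific target is the usual background control of such a precipitation, because beads, tube walls and antibody carry some RNA whatever the antibody recognises. The circRNAs described here were counted in that control only, and whether they are background was not tested. The file names them by circBase-style identifiers without host genes, and 0 of those identifiers were in the gene table used here, so few are named and none by gene.

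Libraries were shallow. Total circRNA counts were 1960 to 2989 per Sens IgG library, 3860 to 6036 per Res IgG library, 4448 to 5561 per Sens RIP library and 5179 to 8662 per Res RIP library. ERCC spike-in RNA, which was added to equal amounts of purified RNA, took 89886 to 133928 counts per Sens IgG library and 56042 to 91178 per Res IgG library, but only 529 to 764 per Sens RIP library and 448 to 703 per Res RIP library.

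IgG-only circRNAs were more numerous in resistant cells. They numbered 116, 109 and 118 in Sens IgG replicates 1, 2 and 3, a mean of 114.3 ± 4.73 (SD, n = 3). In Res IgG they numbered 367, 390 and 396, a mean of 384.3 ± 15.3 (SD, n = 3). The groups did not overlap, and the means differed 3.36-fold. Depth differed in the same direction: at a common 1960 circRNA counts per library the expected numbers were 109.7 ± 1.64 and 274.9 ± 3.12 (SD, n = 3), a ratio of 2.51. At that depth the numbers of all circRNAs detected were 411.5 ± 3.88 and 825.8 ± 1.91 (SD, n = 3), a ratio of 2.01.

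They also took a larger part of the IgG libraries of resistant cells. Their share of circRNA counts was 18.9%, 18.6% and 19.6% in the Sens IgG replicates and 26.7%, 25.3% and 25.8% in the Res IgG replicates. The means were 19.0% ± 0.517 and 25.9% ± 0.699 (SD, n = 3), a ratio of 1.36, and the groups did not overlap. A single circRNA counted with both antibodies held 1180 of the 7794 circRNA counts of Sens IgG. This lowered the Sens share and raised the ratio. In Res IgG the highest such circRNA held 186 of 15292. The ratio without these circRNAs was not computed, and the first also weighs on the Sens numbers at a common depth. Per 1000 ERCC counts there were 4.18 ± 0.124 such counts in Sens IgG and 17.7 ± 0.655 in Res IgG (SD, n = 3), a ratio of 4.22. The circRNAs counted with both antibodies went from 17.8 ± 0.243 to 50.5 ± 1.37 on that scale (SD, n = 3), a ratio of 2.83. No test was made of these totals, since they are summed over circRNAs picked by their counts.

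**Figure D1:**
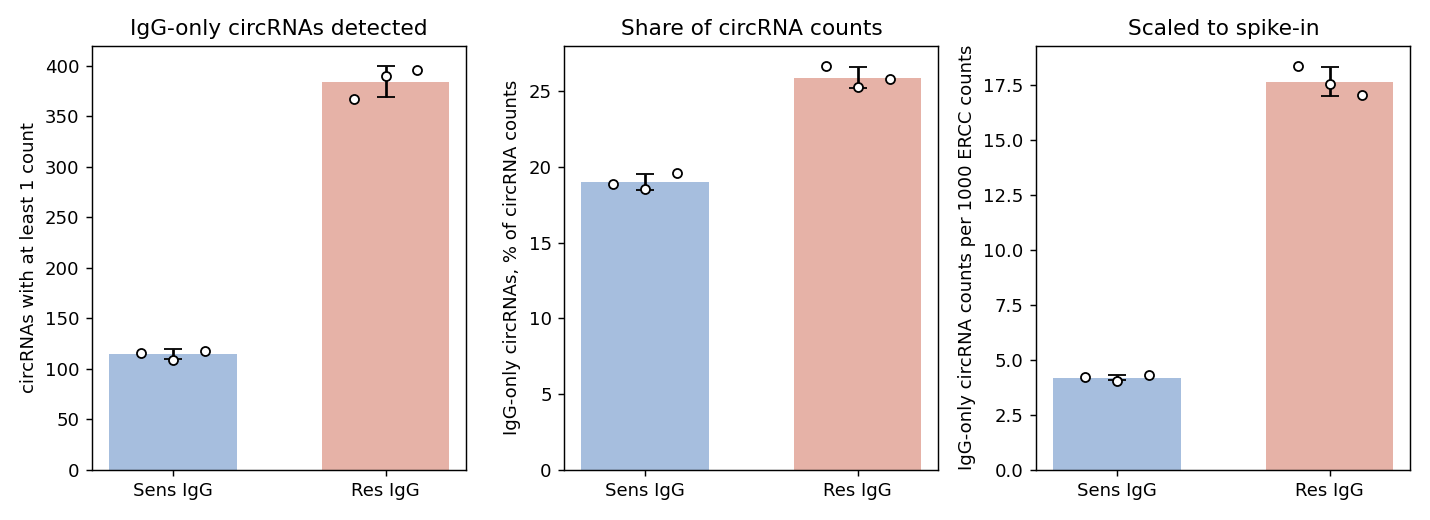
IgG-only circRNAs in the 3 Sens IgG and 3 Res IgG libraries: number detected, percent of circRNA counts, and counts per 1000 ERCC counts. Bars are means, error bars SDs over n = 3 libraries and open circles single libraries; the Res libraries lie above all Sens libraries in each panel, with 367 to 396 detected against 109 to 118.

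The lines shared few of these circRNAs. Of the 568, 115 were counted only in Sens IgG, 439 only in Res IgG and 14 in both. The shared ones made up 10.9% of the 129 seen in Sens IgG and 3.09% of the 453 seen in Res IgG. Among the 997 circRNAs counted with both antibodies, 139 were in the IgG libraries of both lines, 40.2% of those in Sens IgG and 17.6% of those in Res IgG. In the RIP libraries, 1945 of 5816 circRNAs were in both lines, 55.8% of those in Sens and 45.5% of those in Res. The difference between these shares was not tested, and the sets differ in counts per circRNA.

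Within a line the same circRNAs came back in each library. Between any 2 Sens IgG libraries 100 to 107 IgG-only circRNAs were shared, 86.2% to 95.4% of those in either library. Between any 2 Res IgG libraries 327 to 340 were shared, 82.6% to 89.1% of those in either. Between a Sens and a Res library only 9 to 13 were shared, 2.45% to 11.2%. All 3 libraries of the group held 85 of the 115 Sens-only and 285 of the 439 Res-only circRNAs.

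**Figure D2:**
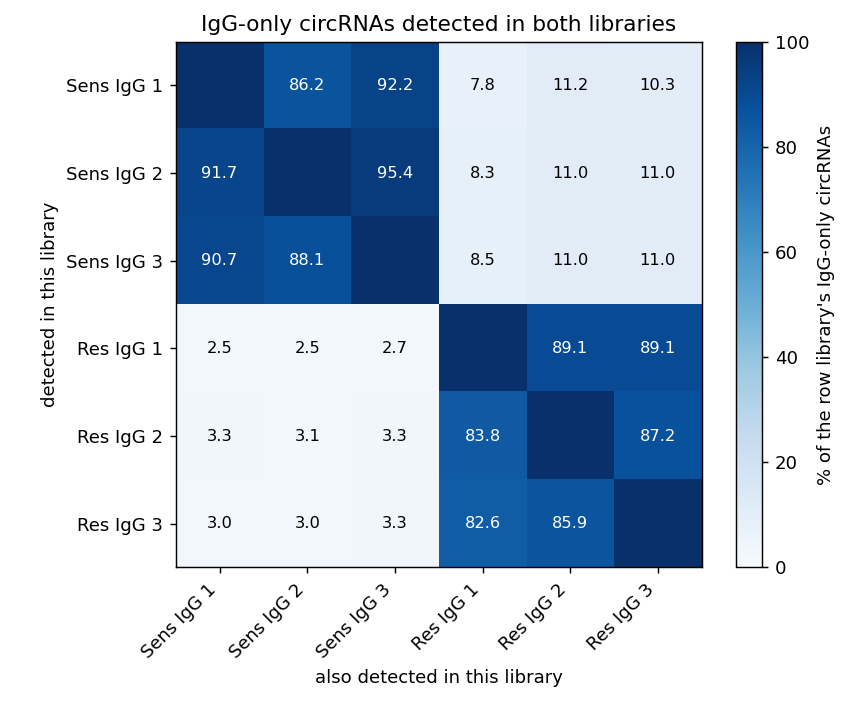
Percent of the IgG-only circRNAs detected in one IgG library (row) that were also detected in another (column), for the 6 IgG libraries. Cells within a line lie between 82.6% and 95.4%, and cells between lines between 2.45% and 11.2%.

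Counts per circRNA were low but seldom as low as 1. Summed over the 3 libraries of a group, the median IgG-only circRNA had 10 counts in Sens IgG (quartiles 6 and 17, highest 29) and 8 in Res IgG (quartiles 5 and 11, highest 37). A sum of 1 was found for 10 of 129 (7.75%) and 29 of 453 (6.40%), and the most frequent sums were 9 in Sens, held by 12 circRNAs, and 7 in Res, held by 45. The circRNAs counted only in the RIP looked different: a sum of 1 was the most frequent value, held by 58.5% of 2747 in Sens RIP and 50.5% of 3429 in Res RIP. All 3 libraries held 75.2% and 64.9% of the IgG-only circRNAs of Sens and Res, against 8.41% and 11.7% of the RIP-only ones.

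This shape of the counts was shared by the rest of the IgG libraries. CircRNAs counted with both antibodies also had 7 as their most frequent IgG sum in each line, medians of 12 in Sens IgG and 10 in Res IgG, and sums of 1 in 5.49% and 3.80%. At sums of 5 to 10 counts, 33 of 44 IgG-only circRNAs of Sens and 147 of 208 of Res (70.7%) were in all 3 libraries. At the same sums this held for 74 of 102 circRNAs counted with both antibodies in Sens IgG (72.5%) and 204 of 277 in Res IgG (73.6%). For RIP-only circRNAs it held for 120 of 195 in Sens RIP (61.5%) and 187 of 319 in Res RIP (58.6%). Whether several counts stand for 1 molecule was not tested.

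**Figure D3:**
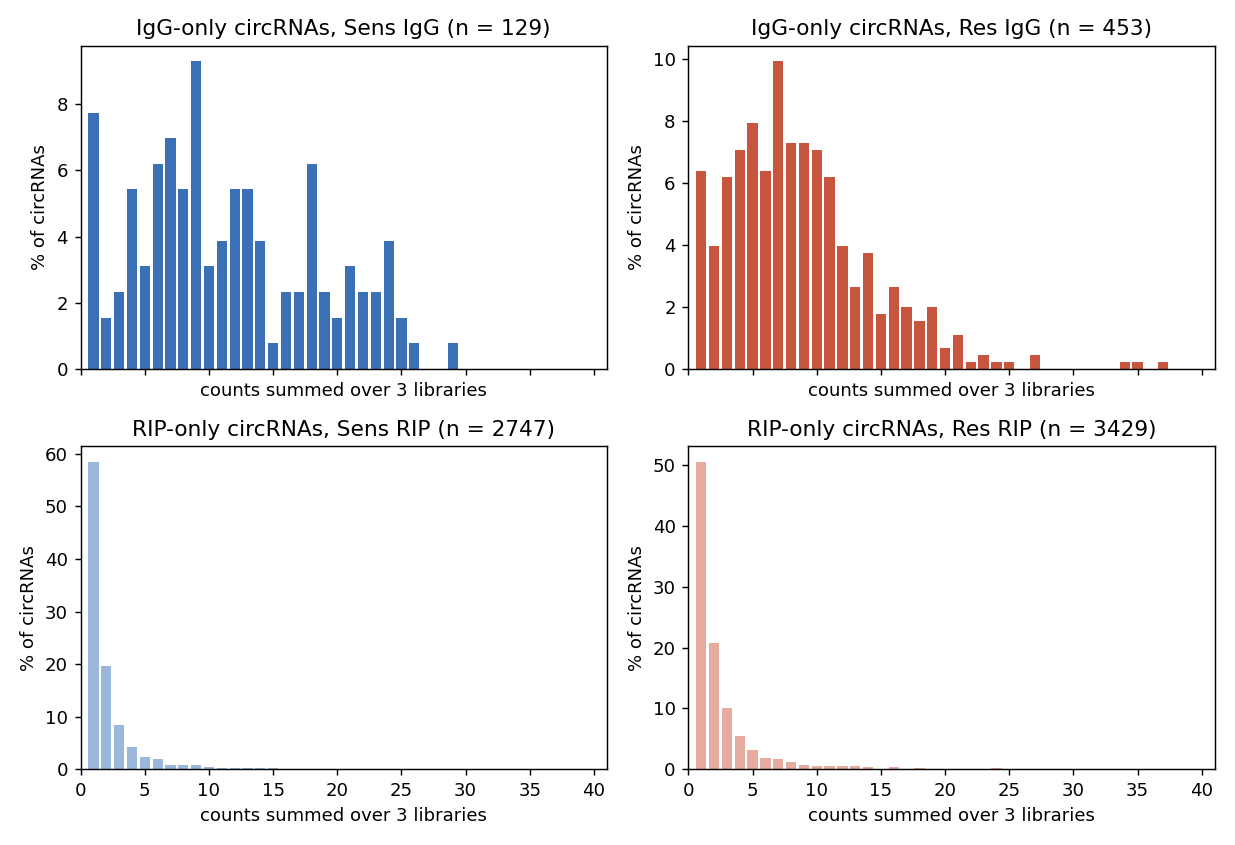
Counts summed over the 3 libraries of a group, as the percent of circRNAs at each sum, for IgG-only circRNAs (upper panels) and RIP-only circRNAs (lower panels); vertical axes differ, and sums above 40 are not drawn. IgG-only circRNAs have their most frequent sums at 9 in Sens and 7 in Res, and RIP-only circRNAs at 1.

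Counts were spread over many IgG-only circRNAs rather than a few. The 10 highest held 16.7% of the group's counts in Sens IgG and 7.01% in Res IgG. Among circRNAs counted with both antibodies the 10 highest held 28.2% and 9.95%, and single circRNAs reached 1180 and 186 summed counts.

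Sens-only circRNAs were led by hsa_circ_0052743 and hsa_circ_0056318. hsa_circ_0052743 had 8, 13 and 8 counts in the 3 Sens IgG libraries and 0 in each of the other 9 libraries. hsa_circ_0056318 had 10, 5 and 11 counts in Sens IgG and 0 elsewhere. Every Sens IgG library held both of them, and no Res IgG library held either. With 0 in Res IgG set to 3 counts over the group, hsa_circ_0052743 was at least 9.61-fold lower in Res IgG on the TMM scale and hsa_circ_0056318 at least 8.61-fold lower. Such bounds take the sums in Sens IgG as exact. The bounds were 6.15-fold and 5.51-fold on the spike-in scale and 19.0-fold and 17.0-fold by circRNA totals.

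Res-only circRNAs were led by hsa_circ_0002266 and hsa_circ_0007864. hsa_circ_0002266 had 11, 6 and 20 counts in the 3 Res IgG libraries and 0 in the other 9. hsa_circ_0007864 had 11, 12 and 12 counts in Res IgG and 0 elsewhere. The first varied more between replicates than the second, and neither was in any Sens IgG library. With their sums in Res IgG taken as exact, they were at least 12.4-fold and 11.7-fold higher in Res IgG on the TMM scale. The bounds were 6.29-fold and 5.95-fold by circRNA totals and 19.4-fold and 18.3-fold on the spike-in scale. No p-value is given for these 4 circRNAs, since each could enter the test only through the line in which it was counted. The direction of their bounds was likewise fixed by the class they were picked from.

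**Figure D4:**
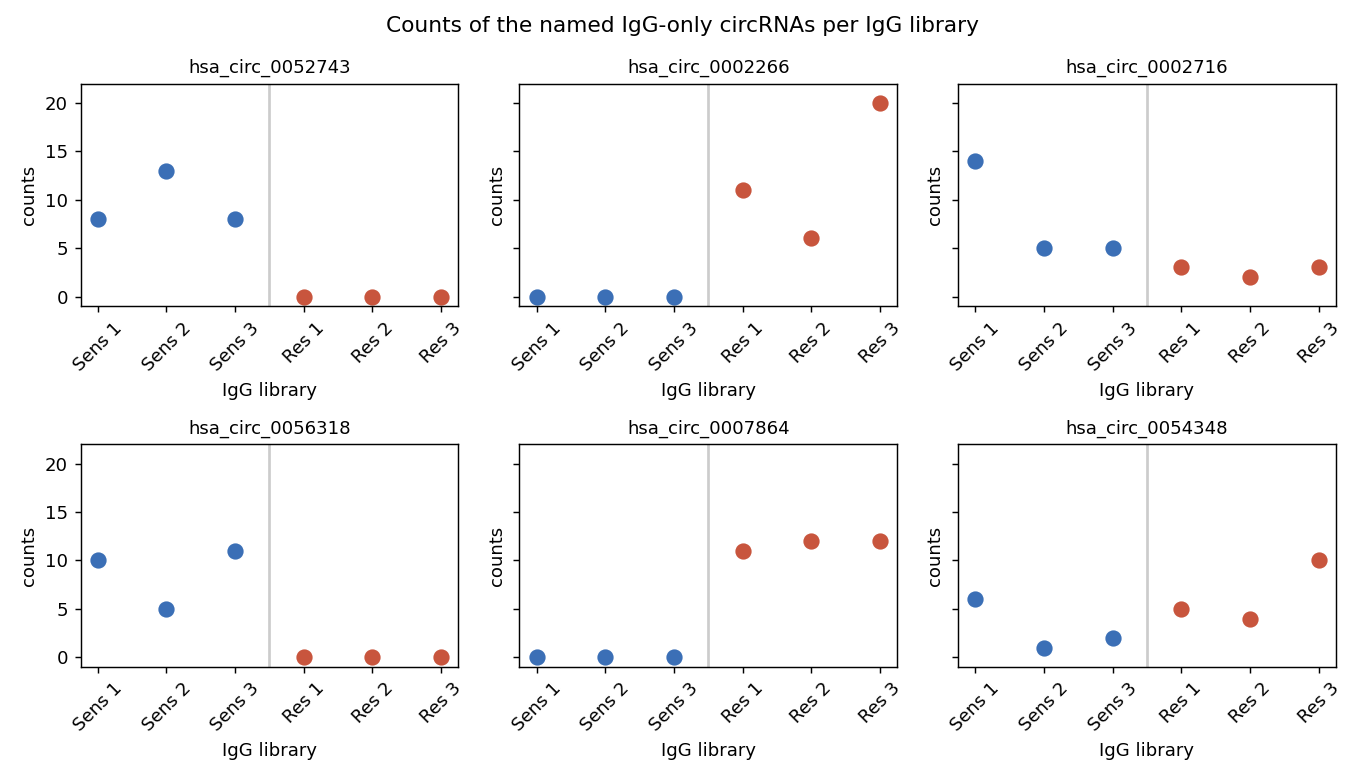
Deposited counts of 6 IgG-only circRNAs in the 3 Sens IgG (blue) and 3 Res IgG (red) libraries: from left to right, 2 seen in Sens only, 2 in Res only and 2 in both lines. One point is 1 library; the Sens-only and Res-only circRNAs are at 0 in every library of the other line.

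The contrast between lines within IgG was not part of the rule and was tested over all circRNAs (edgeR quasi-likelihood test, Benjamini-Hochberg adjusted p under 0.05). The test took in 1307 circRNAs that reached 2 counts in 3 or more libraries, and called 883 of them (67.6%), with 49.3% higher and 18.3% lower in Res IgG. Only 149 of the 1307 had counts in both IgG groups, and of these 24.2% were called higher and 16.8% lower. The test held 237 of the 568 IgG-only circRNAs, and 331 were too sparse, with summed counts of 1 to 18 and a median of 6. Of the 237, 164 were called higher in Res IgG, 64 lower and 9 neither. All 59 Sens-only circRNAs tested were called lower and all 164 Res-only ones higher. A circRNA with 0 in the RIP and 0 in one line can pass the filter only with counts in all 3 IgG libraries of the other line, so these calls were fixed by the filter and support nothing.

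The lower bounds on the difference cover the whole of these classes, tested or not, but they are not a test of it. Both classes were chosen for having no counts in the IgG of the other line. That choice fixed the direction of every bound, and on a given scale its size only restates the summed count. On the TMM scale the bound exceeded 1 for 100 of the 115 Sens-only circRNAs, with a median of 3.31, and for 394 of the 439 Res-only circRNAs, with a median of 2.68. The bound takes the observed sum as exact, so on this scale it passed 1 at sums of about 3 counts or more. A bound just above 1 therefore does not exclude an equal level. For the other 15 and 45 the bound itself allowed one. Scaled to circRNA totals the bound exceeded 1 for 105 and 302, and scaled to spike-in totals for 94 and 411.

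The 14 circRNAs found in the IgG of both lines were the only members whose calls the filter did not fix outright. It still favoured the line with more counts. hsa_circ_0005686 and hsa_circ_0004110 reached 2 counts in no Res IgG library, so they passed through Sens IgG only. hsa_circ_0008460 and hsa_circ_0070598 reached 2 counts in only 1 Res IgG library each, so they also passed through Sens IgG only. All 14 were tested. None was called higher in Res IgG and 5 were called lower, against 24.2% called higher and 16.8% called lower among the 149 tested circRNAs with counts in both IgG groups. At an unadjusted p under 0.05 edgeR also had 0 of them higher, and DESeq2 and limma-voom called 0 higher, with 1 and 5 lower. Their median log2 fold change was -0.85, and over those 149 it was 0.00. This direction depended on scaling: scaled to the spike-in, edgeR called 0 of the 14 lower and 1 higher, and scaled to circRNA totals 7 lower and 0 higher. On these scales 7 and 13 of the 14 had a lower level in Res IgG, and on the TMM scale 9.

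The 5 called circRNAs are named because they are few, after their values were seen. hsa_circ_0008460 had 8, 6 and 9 counts in Sens IgG and 1, 2 and 1 in Res IgG, a log2 fold change of -2.38 (SE 0.81). hsa_circ_0070598 had 5, 6 and 10 counts in Sens IgG and 0, 1 and 3 in Res IgG, a log2 fold change of -2.28 (SE 0.82). In both, every Sens library stood above every Res library, and the Sens IgG libraries alone met the filter. hsa_circ_0005686 had 9 summed counts in Sens IgG and 1 in Res IgG, 8.95-fold lower on the TMM scale. hsa_circ_0004110 had 13 and 2 summed counts, 6.46-fold lower. No p-value is given for hsa_circ_0008460, hsa_circ_0070598, hsa_circ_0005686 or hsa_circ_0004110, which passed the filter through Sens IgG only. Each was named for being called lower, so its direction was fixed by that choice. With spike-in totals the 95% intervals of the ratio of summed counts included 1 for 3 of the 5. They lay below 1 for hsa_circ_0008460 and hsa_circ_0070598, but they cover counting error only, not the spread between libraries. On that scale edgeR, which takes in that spread, called 0 of the 14 lower. With the same 1307 circRNAs tested, leaving out Res IgG replicate 1 left 1 of the 14 called lower, and leaving out Res IgG replicate 2 or 3 left 2. Leaving out Sens IgG replicate 1, 2 or 3 left 4, 4 and 5.

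The most abundant of the 14 were hsa_circ_0002716 and hsa_circ_0054348. hsa_circ_0002716 had 14, 5 and 5 counts in Sens IgG and 3, 2 and 3 in Res IgG. The groups did not overlap, and Sens IgG replicate 1 was the highest library. Its log2 fold change was -1.50 (SE 0.70, edgeR adjusted p = 0.0468), and without Sens IgG replicate 1 it was -1.17 and not called (edgeR adjusted p = 0.265). Without Res IgG replicate 1, 2 or 3 it was -1.67, -1.30 and -1.48 and not called either (edgeR adjusted p = 0.0816, 0.197 and 0.140). It was -0.86 and not called with spike-in totals (edgeR adjusted p = 0.352), and -2.48 and called with circRNA totals (edgeR adjusted p = 0.00105). hsa_circ_0054348 had 6, 1 and 2 counts in Sens IgG and 5, 4 and 10 in Res IgG. These groups overlapped, and its log2 fold change of 1.05 (SE 0.72, edgeR adjusted p = 0.201) was not called. With spike-in totals it was called, at 1.65 (edgeR adjusted p = 0.0402). The 8 others had 4 to 14 summed counts in Sens IgG and 4 to 10 in Res IgG, and none was called.

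**Figure D5:**
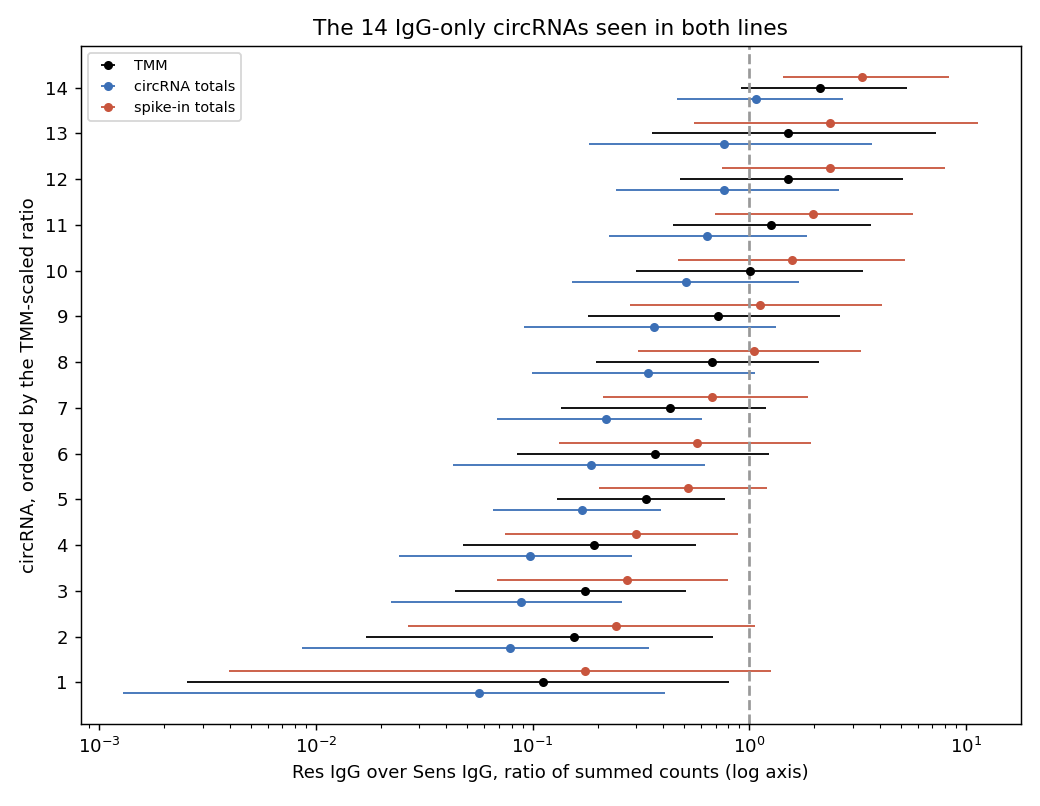
Ratio of summed counts, Res IgG over Sens IgG, for the 14 IgG-only circRNAs counted in both lines, with exact 95% intervals for counting error, on the TMM scale (black), by circRNA totals (blue) and by spike-in totals (red). The horizontal axis is logarithmic; 5 intervals lie wholly below 1 on the TMM scale, 7 by circRNA totals and 2 by spike-in totals, where 1 lies above.

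The zeros in the RIP libraries have different limits on the 2 available scales. As a share of circRNA counts, 0 over the 3 Sens RIP libraries allowed up to 0.0203% (3 counts over the group), and 0 over the 3 Res RIP libraries up to 0.0153%. The median IgG-only circRNA stood above both limits, at 0.128% of circRNA counts in Sens IgG and 0.0523% in Res IgG. At an equal share of circRNA counts, 119 of the 129 IgG-only circRNAs of Sens would have given at least 3 counts over the Sens RIP libraries, and 406 of the 453 of Res at least 3 over the Res RIP libraries.

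Relative to the spike-in the order was the opposite. The zeros allowed up to 1.52 counts per 1000 ERCC counts in the parental RIP and 1.62 in the resistant RIP. The most abundant IgG-only circRNA reached only 0.0820 counts per 1000 ERCC counts in Sens IgG and 0.164 in Res IgG, 18.6 and 9.85 times under those limits. At an equal level per ERCC count, 0 of the 129 and 0 of the 453 would have given 3 counts in the RIP, and the highest values were 0.162 and 0.304 counts. On the spike-in scale a level in the RIP as high as in IgG was therefore not detectable at this depth for any of them. Such limits, like the intervals given for ratios, cover counting error only, since PCR copies of a molecule cannot be recognised in these counts.

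The submitters defined a delta enrichment as the RIP level minus the IgG level in RPM, counts scaled to a common library total, taken in Res and lessened by the same difference in Sens. They read negative values as weaker association with IGF2BP2 in resistant cells. For IgG-only circRNAs both RIP terms are 0, so the delta is the Sens IgG level minus the Res IgG level. Its sign is therefore fixed by the class for Res-only and Sens-only circRNAs. With circRNA counts as the denominator, the delta was below 0 for all 439 Res-only circRNAs and 0 of the 115 Sens-only ones. Of the 14 in both lines, 1 was below 0. The 440 IgG-only circRNAs below 0 were 77.5% of the 568, against 50.3% of all 6384 circRNAs. They made up 13.7% of the 3214 circRNAs in the file with a delta below 0. With Sens RIP replicates 2 and 3 averaged as 1 sample, they made up 13.9% of 3161. The lowest value among the 568, -2425 RPM, belonged to hsa_circ_0002266, with 2425 ± 1161 RPM in Res IgG (SD, n = 3) and 0 counts in the other 9 libraries. The highest among them, 4040 RPM, belonged to hsa_circ_0052743, with 4040 ± 2246 RPM in Sens IgG (SD, n = 3). These deltas hold no measurement from the IGF2BP2 antibody above 0.

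The requirement of 0 counts in both lines' RIP removed some circRNAs that were at 0 in their own line. Of 475 circRNAs in Sens IgG, 196 (41.3%) had 0 counts in Sens RIP, and 67 of these had counts in Res RIP, with a median of 2 and at most 10. Of 1243 circRNAs in Res IgG, 563 (45.3%) had 0 counts in Res RIP, and 110 of these had counts in Sens RIP, with a median of 1 and at most 8.

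Just outside the rule lay 223 circRNAs with exactly 1 RIP count, with that count in Sens RIP for 97 and in Res RIP for 126. Their median summed IgG count was 10 (quartiles 7 and 15), against 8.5 (quartiles 5 and 13) for the 568, and 52 were in Sens IgG only, 160 in Res IgG only and 11 in both. hsa_circ_0003279, the highest of them, had 2, 5 and 4 counts in Sens IgG, 19, 22 and 33 in Res IgG and 1 in Sens RIP replicate 2. hsa_circ_0005374 had 16, 7 and 8 counts in Sens IgG, 12, 0 and 9 in Res IgG and 1 in Sens RIP replicate 3. At the other edge of the rule, 38 of the 568 rested on a single IgG count, 10 in Sens and 28 in Res.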

How the data were processed

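The authors deposited raw counts per circRNA and per ERCC transcript for 12 libraries, and per the labels' protocols used RUVSeq for scaling to the spike-in, which raw counts do not include. The submitters' processing notes name GRCh37. The circRNA caller is not given in the sources used here. Library names linked columns to samples. The 57 ERCC rows (7.51% to 97.9% of a library) entered neither library sizes nor tests.

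Members and lists were chosen with earlier results of these data known. Named circRNAs were the 2 with the highest summed IgG counts in each class (Sens IgG only, Res IgG only, both) and the 2 highest with 1 RIP count; the called circRNAs of the class in both lines were added. The test was that of edgeR 4.0.16, run in R 4.3.3 (TMM, quasi-likelihood, all 12 libraries, 1 coefficient per group, Benjamini-Hochberg adjusted p under 0.05), checked first on simulated data. The prior degrees of freedom were infinite: every circRNA's spread came from the trend over all. TMM factors were 2.26 to 2.55 in Sens IgG and 1.10 to 1.28 in Res IgG, so both groups had nearly equal effective sizes (Res over Sens 0.994), although circRNA counts differed 1.96-fold. Numbers at a common depth are exact hypergeometric expectations. Bounds set a group at 0 to 3 counts over the group and take the other group's sum as exact. Ratio intervals are exact binomial, at 95%. DESeq2 1.42.0, limma-voom (limma 3.58.1), other scalings, filters and left-out libraries were alternatives.

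Replicates were compared by chi-square over circRNAs with at least 10 counts in a pair. Over all such circRNAs, all IgG pairs differed beyond sampling noise (chi-square per degree of freedom 1.28 to 1.50). Over the IgG-only circRNAs alone, 37 to 97 per pair, the values were 1.11 to 1.80. There Sens IgG replicates 1 and 3 (1.23), Res IgG replicates 1 and 2 (1.21) and 1 and 3 (1.11) did not differ beyond sampling noise. The remaining IgG pairs did (1.46 to 1.80). Sens RIP replicates 2 and 3 could not be told apart beyond sampling noise (1.14), so the test and the delta enrichment were repeated with them as 1 sample.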

Additional observations from a re-analysis of the deposited data

How the results depend on the processing

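Against the 883 circRNAs called between the IgG groups, DESeq2 called 364 (23 of them IgG-only, with 153 of the 237 tested left without an adjusted p), a filter of 5 counts in 3 libraries 259 (36 IgG-only) and limma-voom 886 (228). Leaving out 1 IgG library gave 504 to 724 calls, with 60 to 167 IgG-only. The low ends arise because the filter needs 3 libraries, which a circRNA of a line left with 2 cannot reach; with the same 1307 circRNAs tested, chosen after seeing the data, there were 792 to 852 calls, 224 to 228 of them IgG-only. Sens RIP replicates 2 and 3 summed to 1 sample, also added later, gave 887 (228). Of the 14 in both lines, 2 were called lower with no filter and 1 with DESeq2; the cause was not tested. The filter of 5 counts kept 4 of the 14, and 3 of these were called lower.

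Same-numbered IgG libraries showed no positive correlation of their deviations from the group means (-0.05 to -0.02). At these low counts that check could miss an effect shared by replicate number. A replicate block gave 737 calls, 173 of them IgG-only and 2 among the 14.

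The Res to Sens ratio of the share of counts, 1.36, was 4.22 per 1000 ERCC counts and 4.04 with all counts of the file as the denominator, and 1.34 to 1.38 without 1 library. The values 1.36 and 1.34 to 1.38 include the circRNA with 1180 counts in Sens IgG, which raised them. The ratio of numbers detected, 3.36, was 2.51 at a common depth and 3.28 to 3.44 without 1 library. Allowing 1 RIP count gave 791 circRNAs, 25 in both lines; requiring 2 IgG libraries of a line gave 510 and 13, and leaving out 1 library 545 to 646 and 13 to 19.

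The log2 fold change of hsa_circ_0005374, -0.51 and not called, reversed to 0.16 with spike-in totals and to 0.12 without Res IgG replicate 2 (0.071 with the same circRNAs tested); leaving out 1 IgG library gave -1.25 to 0.12. With circRNA totals it was -1.47 and called (edgeR adjusted p = 0.00951).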
